A study of Homo sapiens with 12 samples.

Results

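The EGR and NR4A immediate early genes, their NAB co-repressors and the IER2 and IER3 genes were followed in MDA-MB-231 cells, a mesenchymal-like human breast cancer cell line. The 10 genes EGR1, EGR2, EGR3, NR4A1, NR4A2, NR4A3, NAB1, NAB2, IER2 and IER3 were chosen by name. They occupied 15 of the 24331 features of the deposited table of FPKM values (fragments scaled to transcript length and library size), because IER3 had 5 further features on alternative haplotypes of chromosome 6, all listed at 0 in every library. RNA-sequencing covered wild-type cells (WT) and cells with a deletion in the core-regulatory element of the ETS1 promoter, made by CRISPR/Cas9 (ΔCRE). The deletion removed a part of the element that holds NFAT and NF-κB binding sites. Both genotypes were sampled at 0, 6 and 24 h of PMA/Ionomycin stimulation, with 2 biological replicates per condition and 12 libraries. PMA is a phorbol ester that activates protein kinase C, and Ionomycin is a calcium ionophore. Nothing in the labels says that replicates came from separate cultures, so p-values measure the spread between these libraries. The number of clones behind the ΔCRE libraries is not given in the sources used here, so a difference made by the deletion and a difference between clones cannot be told apart.

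Immediate early genes are transcribed within minutes of a growth signal from factors that are already present in the resting cell, and most of their transcripts are short-lived. ERK signalling activates ternary complex factors and SRF at CArG boxes, calcium signalling activates CREB and MEF2 proteins, and promoters of the EGR and NR4A genes are textbook targets of these routes. EGR1, EGR2 and EGR3 are zinc finger transcription factors that bind GC-rich sites, NAB1 and NAB2 bind the EGR proteins and repress them, the NR4A proteins are orphan nuclear receptors, IER2 is a small nuclear protein and IER3 modulates survival and ERK signalling.

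Promoter sequences are given here because the EGR1 and EGR2 windows carry the motifs of these routes. RefSeq promoter windows (from 250 bases before to 50 bases after a transcription start) were found for 7 of the 10 genes, with 12 starts in all. No window was found for NR4A2 and IER3, and EGR3 was not searched. The windows of the RefSeq table were placed on GRCh37 (hg19), the build of the expression values, by exact match. Both strands were searched for the CArG box, for the short cAMP response motif TGACG and for the EGR motif GCGNGGGCG. Among all 35116 windows, 1.29% held a CArG box, 24.6% held TGACG and 9.43% held the EGR motif. In the sequences below, 5′ to 3′ on the strand of the gene, capitals mark the CArG boxes, TGACG or its reverse complement CGTCA, and the EGR motif. The EGR1 sequence is the upstream part of its window (chr5:137800918-137801167, plus strand), directly before the first exon of this gene of 2 exons.
EGR1: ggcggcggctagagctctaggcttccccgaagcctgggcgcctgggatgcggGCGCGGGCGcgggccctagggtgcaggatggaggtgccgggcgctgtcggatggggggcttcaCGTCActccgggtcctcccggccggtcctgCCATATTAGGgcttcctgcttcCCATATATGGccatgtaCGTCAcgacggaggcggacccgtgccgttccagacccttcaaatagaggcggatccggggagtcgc
The EGR2 sequence lies upstream of the last of its 3 RefSeq starts (chr10:64576137-64576376, minus strand).
EGR2: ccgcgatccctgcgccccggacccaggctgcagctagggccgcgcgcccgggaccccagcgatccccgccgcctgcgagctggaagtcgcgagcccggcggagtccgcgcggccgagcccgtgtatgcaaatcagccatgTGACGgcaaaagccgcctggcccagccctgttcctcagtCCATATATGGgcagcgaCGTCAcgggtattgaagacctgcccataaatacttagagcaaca
EGR1 had 2 CArG boxes, at -105 to -96 and at -83 to -74 from the start, 2 copies of the TGACG motif and 1 EGR motif at -198 to -190. EGR2 had 1 CArG box at -71 to -62 between 2 copies of TGACG. A CArG box was found in no window of the other 5 genes. Short stretches around the single motif of NAB2 (the EGR motif, chr12:57482827-57482851, plus strand) and of IER2 (TGACG on the opposite strand, chr19:13261075-13261099, plus strand) are shown for comparison.
NAB2: tgcgtcctGCGGGGGCGgaggcgcg
IER2: cccccgccccCGTCAcgccaccatc
The windows of NR4A3 held 4 copies of TGACG, and those of NAB1 held both TGACG and EGR motifs. Both windows of NR4A1 held none of the 3 motifs. They cover 2 starts of a gene with 22 annotated transcripts, and any further start was not searched. The full cAMP response element TGACGTCA, the AP-1 motif TGANTCA, the ETS motif CCGGAAGT and the NR4A motif AAAGGTCA were found in no window of the 7 genes, and in 1.85%, 7.71%, 4.14% and 1.22% of all windows. A match describes the letters of the window and does not show that a factor binds there.

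**Figure D1:**
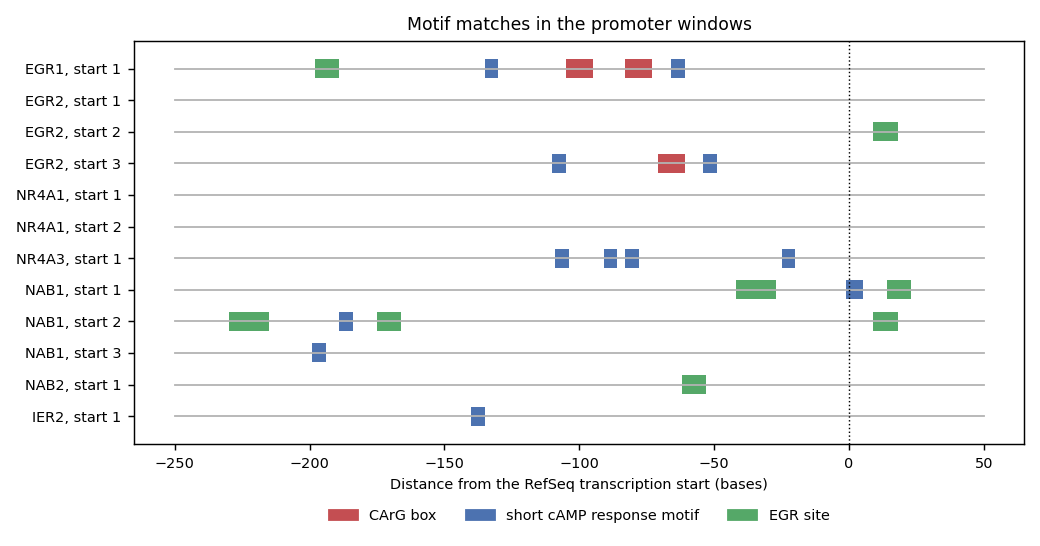
Motif matches in the 12 promoter windows of 7 genes, plotted as distance in bases from the RefSeq transcription start (dotted line). CArG boxes (red) occur in EGR1 and at the last start of EGR2, each beside copies of the short cAMP response motif (blue), and EGR motifs (green) in EGR1, EGR2, NAB1 and NAB2.

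The library labelled ΔCRE 0 h replicate 1 stood apart from the other 11 and is shown separately. Its sum of FPKM was 1423335, against 566255 to 651080 in the others, and all 8 genes of a list of epithelial and intestinal markers exceeded 1 FPKM in it, with a summed level of 7227 FPKM against 34.9 to 109 FPKM in the others, where VIL1 and CDX1 were listed at 0. Of these 8, EPCAM (2.02 to 3.38 FPKM) and KRT19 (32.5 to 106 FPKM) also exceeded 1 FPKM in all 11. In those 11 libraries, markers of the line were present (VIM at 1543 to 2539 FPKM). All 5 listed markers of the line also exceeded 1 FPKM in the library set apart, VIM at 1200 FPKM and CD44 at 76.2 FPKM. Of 5 genes listed as low or absent in the line, PGR was listed at 0 in the 11, and ESR1 and CDH1 were at or near 0. ERBB2 (9.68 to 15.4 FPKM) and GATA3 (1.76 to 3.32 FPKM) were above 1 FPKM in each of the 11. In the library set apart, CDH1 was at 52.3 FPKM, ERBB2 at 52.0 FPKM and GATA3 at 2.38 FPKM. ESR1 was listed there at 0 and PGR at 0.0128 FPKM. Differences were therefore tested on 11 libraries with limma on log2(FPKM + 1), over the 11256 features whose mean reached 1 FPKM, with Benjamini-Hochberg adjustment over all of them and a threshold of 0.05 (called). The ΔCRE 0 h group then has 1 library, assumed to vary like the other groups. ETS1 itself rose in WT cells from 24.0 and 23.7 FPKM at 0 h to 139 and 145 FPKM at 6 h. In ΔCRE cells ETS1 stood at 16.5 FPKM in the 0 h library used and at 62.8 and 62.2 FPKM at 6 h. The library set apart held 5.08 FPKM of ETS1.

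In WT cells at 6 h, 6 of the 7 tested genes were higher than at 0 h, where 23.3% of all tested features were called higher. The largest changes were those of IER3, NR4A1 and EGR1, and NAB1 was not called. EGR2, EGR3 and NR4A3 had a mean below 1 FPKM and were not tested. In bulk RNA, a change in the number of cells that express a gene and a change in the RNA of each cell cannot be told apart.

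**Figure D2:**
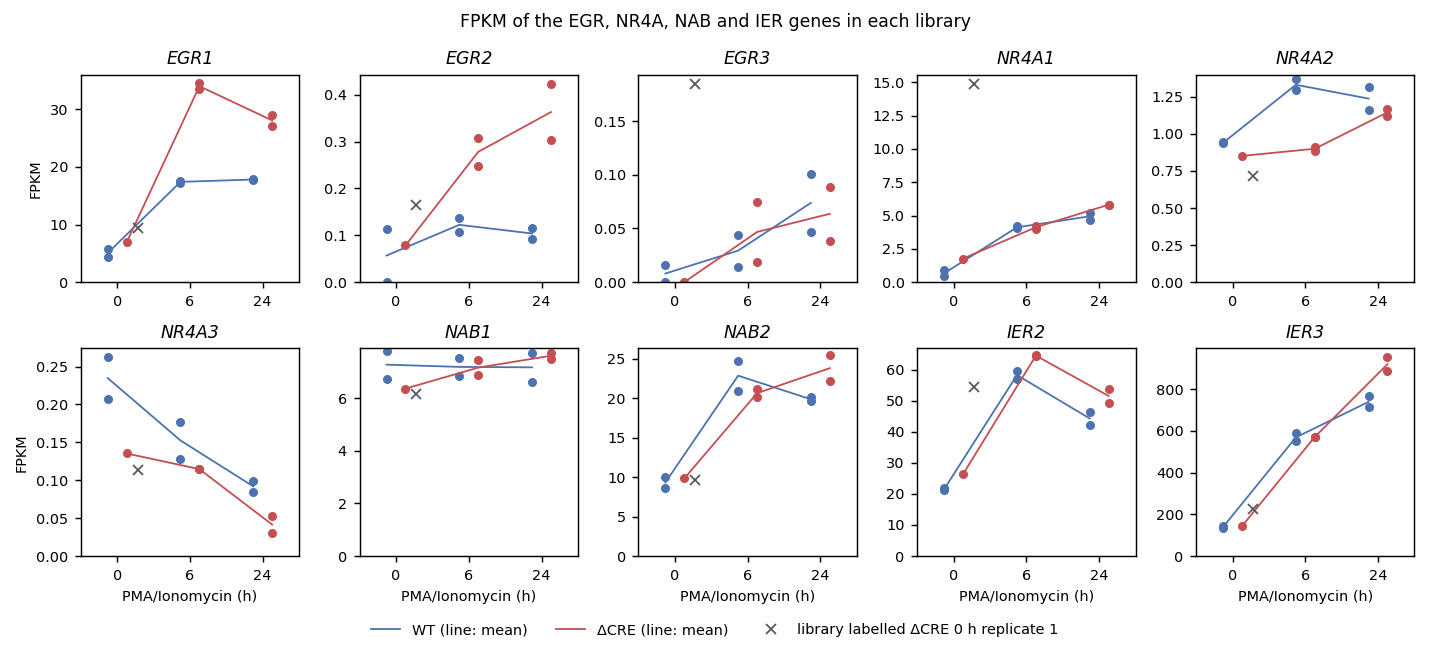
FPKM of the 10 genes in each library against time of PMA/Ionomycin stimulation. Points are libraries, lines join group means (WT blue, ΔCRE red), and the cross is the library labelled ΔCRE 0 h replicate 1. EGR1 at 6 h lay at 33.5 and 34.5 FPKM in ΔCRE cells and at 17.6 and 17.2 FPKM in WT cells, and IER3 kept rising to 24 h in both.

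EGR1, the founding member of its family, was measured at 4.38 and 5.69 FPKM in the WT 0 h libraries, at 17.6 and 17.2 FPKM at 6 h and at 17.7 and 17.9 FPKM at 24 h. Both stimulated groups lay above both unstimulated libraries, and the 6 h and 24 h values nearly coincided. The mean rose 3.46-fold by 6 h, a log2 fold change of 1.62 ± 0.09 (SE) on the log2(FPKM + 1) scale (limma, Benjamini-Hochberg adjusted p = 4.34e-06), which ranked 154 of 11256 features from the highest. At 24 h the log2 fold change against 0 h was 1.65 (adjusted p = 3.53e-06), and between 24 h and 6 h it was 0.03 with a 95% interval from -0.18 to 0.25. Times before 6 h were not sampled.

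In ΔCRE cells EGR1 was at 6.89 FPKM in the 0 h library used, at 33.5 and 34.5 FPKM at 6 h and at 29.1 and 27.1 FPKM at 24 h. All 4 stimulated ΔCRE libraries lay above all 4 stimulated WT libraries. The log2 fold change against 0 h in ΔCRE cells was 2.15 at 6 h (limma, Benjamini-Hochberg adjusted p = 4.1e-06) and 1.88 at 24 h (adjusted p = 8.56e-06). It fell by 0.27 from 6 h to 24 h (adjusted p = 0.0422), but this call was lost when any 1 of the 4 WT or 4 ΔCRE stimulated libraries was left out (adjusted p = 0.0616 to 0.185), and with a pseudocount of 0.1, no filter on low values, rescaling to TPM or quantile normalization (adjusted p = 0.0577 to 0.255).

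EGR2, which acts in myelinating cells and lymphocytes, was close to the limit of the table. Its values were 0.113 and 0 FPKM in WT cells at 0 h, 0.137 and 0.107 FPKM at 6 h and 0.115 and 0.0922 FPKM at 24 h. In ΔCRE cells it was at 0.0782 FPKM at 0 h, 0.307 and 0.249 FPKM at 6 h and 0.422 and 0.304 FPKM at 24 h. The span of EGR2 shares 4735 bases, introns included, with ENSG00000289487 on the same strand. A known strand setting would not separate their reads there. For EGR2, the 4 stimulated ΔCRE libraries lay above all 7 other libraries of the fit. With no filter on low values, the difference between ΔCRE and WT cells at 24 h was 0.30 on the log2(FPKM + 1) scale (limma, Benjamini-Hochberg adjusted p = 0.0459, with 1.35% of all features called higher), and at 6 h it was 0.19 (adjusted p = 0.151). EGR3, a calcium-responsive relative in lymphocytes and neurons, did not exceed 0.101 FPKM in the 11 libraries and was listed at 0 in WT 0 h replicate 1 and in the ΔCRE 0 h library. No contrast of EGR3 was called without the filter.

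NAB2, the co-repressor that EGR proteins themselves induce, stood at 10.01 and 8.65 FPKM in WT cells at 0 h, at 24.8 and 21.0 FPKM at 6 h and at 20.2 and 19.6 FPKM at 24 h. In ΔCRE cells it was at 9.84 FPKM at 0 h, 21.1 and 20.2 FPKM at 6 h and 25.5 and 22.2 FPKM at 24 h. Stimulated and unstimulated libraries did not overlap in either genotype, while the genotypes overlapped at 6 h. The log2 fold change at 6 h was 1.21 ± 0.10 (SE) in WT cells (limma, Benjamini-Hochberg adjusted p = 3.42e-05) and 0.999 ± 0.12 in ΔCRE cells (adjusted p = 0.00054). The NAB2 feature spans both NAB2 and STAT6, which overlap by 69 bases on opposite strands. The strand setting of the counting is not given in the sources used here, so reads from the overlap cannot be assigned. The feature ends at base 57505196, past the end of NAB2 at 57489259, and any share of STAT6 reads in it was not tested. STAT6, which has a feature of its own, rose by a log2 value of 0.54 in WT cells at 6 h (adjusted p = 0.000656).

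NAB1, the constitutive co-repressor of the pair, lay between 6.37 and 7.81 FPKM in all 11 libraries. The WT values at the 3 times overlapped, and the log2 fold change in WT cells at 6 h was -0.01 with a 95% interval from -0.23 to 0.20 (limma, Benjamini-Hochberg adjusted p = 0.922). NAB1 was not called in any of the 11 contrasts. NAB2 exceeded NAB1 by little at 0 h in WT cells (9.33 ± 0.966 against 7.28 ± 0.753 FPKM, SD, n = 2) and by far more at 6 h (22.9 ± 2.68 against 7.19 ± 0.498 FPKM, SD, n = 2). EGR1 was below NAB1 at 0 h, at 5.04 ± 0.923 FPKM (SD, n = 2), and above it at 6 h, at 17.4 ± 0.276 FPKM (SD, n = 2).

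NR4A1 (Nur77) was measured at 0.875 and 0.457 FPKM in WT cells at 0 h, at 4.18 and 4.05 FPKM at 6 h and at 5.21 and 4.67 FPKM at 24 h. In ΔCRE cells it was at 1.77 FPKM in the 0 h library used, at 4.23 and 4.02 FPKM at 6 h and at 5.81 and 5.82 FPKM at 24 h. Among the 11 libraries of the fit, the 0 h libraries were the lowest in both genotypes, and the 6 h values of the genotypes overlapped. The library labelled ΔCRE 0 h replicate 1 held 14.9 FPKM of NR4A1, above all 11. In WT cells the mean rose 6.18-fold by 6 h and 7.42-fold by 24 h, with log2 fold changes of 1.63 ± 0.12 (SE, limma, Benjamini-Hochberg adjusted p = 1.34e-05) and 1.84 ± 0.12 (adjusted p = 5.61e-06) on the log2(FPKM + 1) scale. In ΔCRE cells the log2 fold changes were 0.89 at 6 h (adjusted p = 0.00207) and 1.30 at 24 h (adjusted p = 0.000195), from a 0 h library above both WT 0 h libraries. From 6 h to 24 h NR4A1 rose by 0.41 in ΔCRE cells (adjusted p = 0.0174). This last call was lost with a pseudocount of 0.1 (adjusted p = 0.0927) and without ΔCRE 6 h replicate 2, ΔCRE 24 h replicate 1 or ΔCRE 24 h replicate 2 (adjusted p = 0.0663 to 0.0794).

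NR4A2 (Nurr1) moved little. It was at 0.937 and 0.943 FPKM in WT cells at 0 h, at 1.30 and 1.37 FPKM at 6 h and at 1.32 and 1.16 FPKM at 24 h, and its mean was just above the filter. The ΔCRE values were 0.852 FPKM at 0 h, 0.886 and 0.914 FPKM at 6 h and 1.12 and 1.17 FPKM at 24 h. Its ΔCRE values at 6 h were lower than those of WT cells at 6 h and even at 0 h. The log2 fold change in WT cells at 6 h was 0.27 ± 0.09 (SE, limma, Benjamini-Hochberg adjusted p = 0.0366), and the call was lost after rescaling to TPM (adjusted p = 0.0996) and without WT 0 h replicate 1, WT 0 h replicate 2, WT 6 h replicate 1, WT 6 h replicate 2 or ΔCRE 24 h replicate 1 (adjusted p = 0.0549 to 0.123). NR4A3 (NOR1) went the other way at very low levels. It was at 0.207 and 0.262 FPKM in WT cells at 0 h, at 0.176 and 0.129 FPKM at 6 h and at 0.0988 and 0.0850 FPKM at 24 h. With no filter, NR4A3 at 24 h was lower than at 0 h by -0.18 on the log2(FPKM + 1) scale (limma, Benjamini-Hochberg adjusted p = 0.00385) in WT cells and by -0.12 (adjusted p = 0.0455) in ΔCRE cells, where 18.2% and 13.3% of all features were called lower.

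IER2 was measured at 21.8 and 21.3 FPKM in WT cells at 0 h, at 59.6 and 56.9 FPKM at 6 h and at 46.3 and 42.2 FPKM at 24 h. ΔCRE cells had 26.4 FPKM of IER2 at 0 h, 64.4 and 64.7 FPKM at 6 h and 53.8 and 49.3 FPKM at 24 h. Over the 11 libraries of the fit, the order was the same in both genotypes, with no overlap between times. It was lowest at 0 h, highest at 6 h and intermediate at 24 h. The library labelled ΔCRE 0 h replicate 1 was outside this order, with IER2 at 54.5 FPKM, above both ΔCRE libraries at 24 h. The log2 fold change at 6 h was 1.39 ± 0.07 (SE, limma, Benjamini-Hochberg adjusted p = 1.06e-06) in WT cells and 1.26 ± 0.08 (adjusted p = 1.08e-05) in ΔCRE cells. Of the tested genes, IER2 was called lower at 24 h than at 6 h in both genotypes, by -0.39 (adjusted p = 0.00156) in WT cells and by -0.32 (adjusted p = 0.00379) in ΔCRE cells.

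IER3 was the most abundant of the 10 genes in every library. It was at 145 and 133 FPKM in WT cells at 0 h, at 588 and 549 FPKM at 6 h and at 765 and 712 FPKM at 24 h. The ΔCRE libraries held 143 FPKM at 0 h, 568 and 572 FPKM at 6 h and 953 and 884 FPKM at 24 h. Each later time lay above the earlier one in both genotypes, and at 24 h both ΔCRE libraries lay above both WT libraries. In WT cells the log2 fold change against 0 h was 2.03 ± 0.07 (SE, limma, Benjamini-Hochberg adjusted p = 1.44e-07, rank 110 of 11256) at 6 h and 2.40 ± 0.07 (adjusted p = 7.63e-08, rank 56) at 24 h. In ΔCRE cells it was 1.99 at 6 h (adjusted p = 9.21e-07) and 2.67 at 24 h (adjusted p = 1.96e-07). IER3 overlaps the antisense genes IER3-AS1 and HCG20 in the GENCODE annotation, and without a known strand setting their reads cannot be told from those of IER3. The same limit applies where the spans of other genes are shared with genes on the opposite strand, over 1045 bases of NR4A1 (with NR4A1AS), 662 and 1123 bases of IER2, 3095 and 20470 bases of NAB1, 3331 bases of EGR3 and the whole 45037 bases of NR4A3 (with STX17-DT), introns included.

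Counted together, 5 of the 7 tested genes were higher at 24 h than at 0 h in WT cells (26.5% of all tested features were), 5 of 7 at 6 h in ΔCRE cells (16.8%) and 5 of 7 at 24 h in ΔCRE cells (20.6%). The 5 were EGR1, NR4A1, NAB2, IER2 and IER3 each time. Between 6 h and 24 h, 1 gene was higher (IER3, against 20.5% of features) and 1 lower (IER2, against 26.3%) in WT cells. In ΔCRE cells 2 were higher (NR4A1 and IER3, against 22.1%) and 2 lower (EGR1 and IER2, against 27.5%). Rescaling each library to the same sum moved the median log2 fold change of all features at 6 h against 0 h from -0.00 to -0.12 in WT cells and from 0.00 to -0.13 in ΔCRE cells, and no direction of the 5 genes above changed with it. With the library labelled ΔCRE 0 h replicate 1 in the fit, all groups share an estimate of the spread that includes it. Calls fell over all features too, from 23.3% to 5.19% higher in WT cells at 6 h, where 4 of the 7 genes were then called (EGR1, NAB2, IER2 and IER3). EGR1, NAB2 and IER3 were called at 24 h in WT cells and at 6 h and 24 h in ΔCRE cells, NR4A1 and IER2 were not, where 6.31%, 5.82% and 6.48% of all features were called higher. No gene was called between 6 h and 24 h, where 4.98% of all features were called in either direction in WT cells and 7.24% in ΔCRE cells. NR4A1 was at 14.9 FPKM in that library, and its log2 fold change at 6 h in ΔCRE cells became -0.37 (adjusted p = 0.679).

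**Figure D3:**
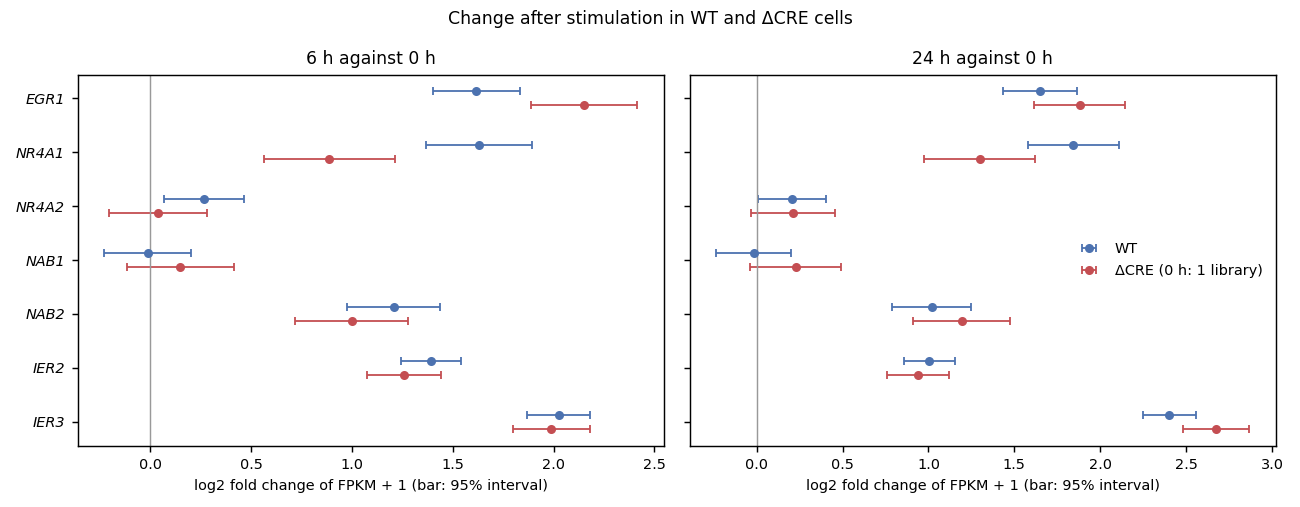
Log2 fold change of FPKM + 1 against 0 h at 6 h and 24 h for the 7 tested genes, in WT (blue) and ΔCRE (red) cells, with 95% intervals from limma. EGR1 at 6 h was 1.62 in WT and 2.15 in ΔCRE cells, NR4A1 was 1.63 and 0.89, and the intervals of NAB1 include 0 in both genotypes and at both times.

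The comparison of ΔCRE with WT cells asks which of these genes differ when part of the ETS1 element is deleted. EGR1 was higher in ΔCRE cells at 6 h, by 1.95-fold in mean FPKM (34.0 ± 0.728 against 17.4 ± 0.276 FPKM, SD, n = 2). On the log2(FPKM + 1) scale the difference was 0.93 ± 0.09 (SE) with a 95% interval from 0.71 to 1.14 (limma, Benjamini-Hochberg adjusted p = 0.000906), rank 41 of 11256 features from the highest. EGR1 was the only gene of the 7 called at 6 h, where 3.62% of all tested features were called higher and 6.22% lower. Leaving out any 1 library kept the call, with an adjusted p of at most 0.0139. It was lost when the library labelled ΔCRE 0 h replicate 1 entered the fit (adjusted p = 0.0804), although that library does not enter the difference itself, and the share of all features called higher was then 0.0428%.

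At 24 h, 2 of the 7 genes were higher in ΔCRE cells, where 2.35% of all tested features were called higher and 3.97% lower. EGR1 was higher by a log2 value of 0.63 ± 0.09 (SE, limma, Benjamini-Hochberg adjusted p = 0.00806), a 1.58-fold difference in mean FPKM. Without WT 24 h replicate 1 its adjusted p was 0.0674, without WT 24 h replicate 2 it was 0.0539 and without ΔCRE 24 h replicate 1 it was 0.0541. IER3 was higher by 0.31 ± 0.07 (SE, adjusted p = 0.0326). That call was lost when any 1 of the 4 WT or 4 ΔCRE stimulated libraries was left out (adjusted p = 0.0530 to 0.177), and with no filter (adjusted p = 0.0563). IER2 and NAB2 were not called, at 0.21 (adjusted p = 0.0977) and 0.25 (adjusted p = 0.204).

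At 0 h, 1 of the 7 genes was called, against 0.657% of all tested features called higher. NR4A1 was higher in the single ΔCRE library by 0.74 ± 0.14 (SE, limma, Benjamini-Hochberg adjusted p = 0.0432), and this was lost without WT 0 h replicate 2 or any 1 of the 4 WT and 4 ΔCRE stimulated libraries (adjusted p = 0.0669 to 0.0913), and with no filter (adjusted p = 0.0763). EGR1 was not called at 0 h, at 0.40 with a 95% interval from 0.13 to 0.66 (adjusted p = 0.154). Without WT 0 h replicate 2 the EGR1 difference was 0.55 (adjusted p = 0.0306). Among the genes not called at 6 h, the 95% intervals ran from -0.26 to 0.27 for NR4A1, from -0.15 to 0.16 for IER3 and from -0.22 to 0.21 for NAB1. NR4A2 was at -0.30 with an interval from -0.49 to -0.10 (adjusted p = 0.0727), and passed with no filter (adjusted p = 0.0258) or without the trend of the spread (adjusted p = 0.0184).

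**Figure D4:**
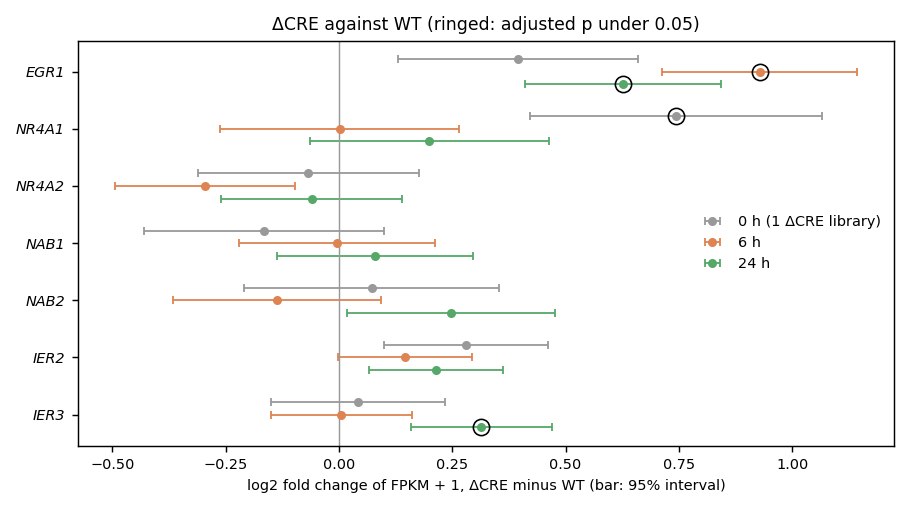
Difference between ΔCRE and WT cells on the log2(FPKM + 1) scale at 0 h (grey, 1 ΔCRE library), 6 h (orange) and 24 h (green) for the 7 tested genes, with 95% intervals from limma. Rings mark an adjusted p under 0.05, and the largest ringed value is that of EGR1 at 6 h, at 0.93.

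Whether the response to stimulation itself differed between the genotypes was tested as an interaction. No gene of the 7 was called, either for the change from 0 h to 6 h (0.267% of all tested features called in either direction) or for the change from 6 h to 24 h (0.16%). For EGR1 the change from 0 h to 6 h was larger in ΔCRE cells by 0.53 ± 0.15 (SE, limma, Benjamini-Hochberg adjusted p = 0.356). For NR4A1 it was smaller, by -0.74 ± 0.18 (adjusted p = 0.277), and without WT 0 h replicate 1 the value was -0.92 (adjusted p = 0.0498). From 6 h to 24 h the interaction was -0.30 for EGR1 (adjusted p = 0.714), 0.38 for NAB2 (adjusted p = 0.646) and 0.31 for IER3 (adjusted p = 0.514). At an unadjusted p under 0.05, 2 of the 7 genes passed for the first interval (EGR1 and NR4A1) and 2 for the second (NAB2 and IER3), where 8.08% and 6.98% of all tested features passed.

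Other genes of the same routes were read from 3 lists. Of 28 tested further immediate early genes, 16 were higher and 6 lower in WT cells at 6 h, with a median log2 fold change of 0.62 against -0.00 for all features. JUNB, an AP-1 subunit, had the largest change at 2.61, and CTGF, a secreted matricellular protein, the smallest at -1.23. Of 23 tested upstream factors and kinases, 10 were higher and 4 lower, with a median of 0.16. The class IIa histone deacetylases, which bind and repress MEF2 proteins, were at both ends of this list, HDAC5 at 1.82 and HDAC4 at -1.08. Of 14 tested partners and textbook targets, 7 were higher and 4 lower, with a median of 0.18. ICAM1, a leukocyte adhesion molecule, was at 6.57, and RXRA, a dimerization partner of NR4A receptors, was at -0.91. For scale, 23.3% of all tested features were called higher and 21.1% lower in this comparison.

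The same lists were compared between the genotypes at 6 h, where 3.62% of all tested features were called higher and 6.22% lower. The genes named next were chosen after their values were seen. Of the 28 immediate early genes, 3 were higher in ΔCRE cells (ATF3 at 0.58, PHLDA1 at 0.24, MCL1 at 0.20) and 3 lower (SGK1 at -0.59, CSRNP1 at -0.34, FOSL2 at -0.31), with a median of -0.05. None of the 23 upstream genes was higher and 4 were lower, HDAC7 at -0.58, ELK3 at -0.49, CRTC2 at -0.43 and HDAC5 at -0.41. The partners and targets had 2 higher, F3 (tissue factor) at 0.93 and GDF15 (a stress-induced cytokine) at 0.85, and 2 lower, RXRA at -0.41 and THBS1 at -0.33. At 24 h, against 2.35% of all tested features called higher and 3.97% lower, 3 immediate early genes were higher (IER5L, KLF10 and PHLDA1) and 2 lower (CYR61 and FOSL2), no upstream gene was called, and GDF15 was higher while THBS1, RXRA and ICAM1 were lower.

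For each tested gene, the feature with the most similar course was found as the smallest mean absolute difference of centred log2(FPKM + 1) values over the 11 libraries. For EGR1 it was GDF15, with a mean difference of 0.0950, where the median over all features was 0.780. GDF15 was at 3.53 and 4.28 FPKM in WT cells at 0 h, at 16.2 and 16.2 FPKM at 6 h and at 16.1 and 14.4 FPKM at 24 h. In ΔCRE cells GDF15 was at 6.95 FPKM at 0 h, 29.6 and 30.3 FPKM at 6 h and 30.1 and 25.8 FPKM at 24 h. As for EGR1, all stimulated ΔCRE libraries lay above all stimulated WT libraries. GDF15 was picked for its similarity to EGR1 in these same libraries, so the shared order is not a separate result. The nearest features of the others were FADS3 for NR4A1 (0.150), TOMM34 for NAB2 (0.0729), TBC1D10A for IER2 (0.0568), C5orf45 for IER3 (0.142), HPS1 for NR4A2 (0.0430) and ATF6 for NAB1 (0.0319). Among the 7 genes themselves, the closest pair were the nearly flat NAB1 and NR4A2 (0.107) and, of the genes that rose, NAB2 and IER2 (0.164), while EGR1 and NR4A1 differed by 0.352. These distances describe 11 libraries that share 6 conditions.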

How the data were processed

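The authors prepared stranded mRNA libraries, aligned the reads with TopHat 2.0.12 (hg19) and deposited the FPKM values that Cufflinks 2.2.1 gave, 1 per feature and library. The annotation behind the features and the strand setting are not given in the sources used here. FPKM values keep no fragment number, so depth is unknown and counting intervals were not computed. All 12 columns were used. The columns of ΔCRE 6 h replicate 2 and ΔCRE 0 h replicate 2 have a digit in place of a letter in their names and were matched to the only label left.

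The deposited FPKM values were put on the log2(FPKM + 1) scale. Features whose mean over 11 libraries reached 1 FPKM entered limma 3.58.1 (lmFit and eBayes with trend, R 4.3.3) as 1 model of 6 groups with 11 contrasts and Benjamini-Hochberg adjustment. A fold change on this scale understates changes of low genes. The script was tested on simulated data. The 10 genes and the lists were chosen with earlier results of these data known. Other genes were named as the most similar course of each tested gene and as the largest and smallest called change of each list in WT cells at 6 h. STAT6 was named for its overlap with NAB2, and the list genes called between genotypes were named after their values were seen. Alternatives tried were no filter, a pseudocount of 0.1, rescaling to TPM, quantile normalization, the replicate number as a block, all 12 libraries, eBayes without trend and leaving out each of the 11 libraries. The authors' lists of differential genes were not used. Annotation is GENCODE for GRCh37, and promoter windows are from RefSeq.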

Additional observations from a re-analysis of the deposited data

Results flagged for a closer look

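The library labelled ΔCRE 0 h replicate 1 was left out of the 11-library fit behind the comparisons. In it, 6 of the 10 genes lay above both WT 0 h libraries, as did 51.3% of the 18622 features above 0 in at least 1 library of the 12. EGR1 was at 9.46 FPKM, EGR2 at 0.164 FPKM, EGR3 at 0.184 FPKM, NR4A1 at 14.9 FPKM, IER2 at 54.5 FPKM and IER3 at 227 FPKM. For NR4A1 this was 17.0 times the higher WT 0 h value, and NR4A1 and EGR3 also lay above all 11 other libraries, stimulated ones included. NR4A2 and NAB1 lay below all 11. Markers of other epithelia were high in the same library, at a sum of 7227 FPKM, and their part in these values was not tested.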

How the results depend on the processing

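Over the 7 tested genes and 11 contrasts (77 effects, 45 of them given above), 18 alternatives gave 1358 values, of which 1252 kept their direction and side of the threshold, 61 lost the call, 20 gained it and 25 changed sign. With all 12 libraries, the count of called genes fell from 5 to 3 in WT cells at 24 h against 0 h and in ΔCRE cells at 6 h and 24 h against 0 h, and to 0 between 24 h and 6 h in both genotypes and between genotypes at 0 h, 6 h and 24 h (from 1, 1 and 2). Calls over all features were few as well, in either direction. Against 0 h, 10.5% were called in WT cells at 24 h, 8.66% in ΔCRE cells at 6 h and 11.2% at 24 h. Between 24 h and 6 h, 4.98% were called in WT cells and 7.24% in ΔCRE cells. Between genotypes it was 0.146% at 0 h, 0.171% at 6 h and 0.146% at 24 h. With all 12 libraries, the ΔCRE change of NR4A1 at 6 h was -0.37. With no filter, 8 of 10 genes were called in ΔCRE cells at 24 h against 0 h, where 26.9% of all features were called. Between genotypes with no filter, 0 were called at 0 h (1.44% of all features) and 2 at 6 h (5.72%). With a pseudocount of 0.1, 2 were called in ΔCRE cells at 24 h against 6 h (49.8% of all features). Without the trend of the spread, 2 were called between genotypes at 6 h (9.33% of all features). With 1 library left out, calls changed in WT cells at 6 h against 0 h (NR4A2), in ΔCRE cells at 24 h against 6 h and for genotypes compared at 0 h and at 24 h. They also changed for the interaction at 6 h (NR4A1 at -0.92 without WT 0 h replicate 1). The shares of all features called in these contrasts changed as well. The difference of NR4A1 between genotypes at 6 h was -0.00308 after rescaling to TPM and ran from -0.0269 to 0.0308 with 1 library left out, that of IER3 was -0.000575 after rescaling to TPM and -0.0674 after quantile normalization and ran from -0.0438 to 0.0544, that of NAB1 ran from -0.0665 to 0.0576, and the change of NAB1 in WT cells at 6 h ran from -0.106 to 0.0796. The causes were not tested. Deviations of samples with the same replicate number correlated at r from -0.0676 to 0.202 over 10 pairs of groups, over 0.1 in 2. Whether the numbers pair the samples was not tested. With the replicate number as a block, 2 genes were called between genotypes at 0 h (IER2 and NR4A1) and 4 at 24 h (EGR1, IER2, IER3 and NAB2), and the share of all features called higher rose as well, from 0.657% to 3.13% and from 2.35% to 5.54%. Without ΔCRE 0 h replicate 2, no contrast with ΔCRE 0 h could be made. With 1 library at ΔCRE 0 h and depth unknown, small differences at 0 h and of genes below 1 FPKM were not resolved.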
